A study of Mus musculus with 30 samples.

Results

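Chemokine ligands are small secreted proteins that steer the movement of leukocytes through G protein-coupled receptors, and most of their genes lie in a few clusters of neighbouring copies. The names follow the spacing of the first conserved cysteines (CC, CXC, CX3C and XC ligands). Epithelial cells, including those of the lung, can make several of them, and NF-kB, a family of inflammatory transcription factors, is a well-known activator of many, among them the ligands that attract neutrophils. The chemokine ligand genes were taken here as the protein-coding genes of the GENCODE mouse annotation with a symbol beginning with Ccl, Cxcl, Cx3cl or Xcl and a number, which gave 37 of 21951 protein-coding genes. The rule used names alone and no measured value.

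H3K27ac, the acetylation of lysine 27 of histone H3, marks active promoters and enhancers, and was mapped by chromatin immunoprecipitation and sequencing in CK1750 and Tnm2, both lines of mouse lung adenocarcinoma cells grown in culture. CK1750 with DMSO, the solvent, had 3 samples, of which 2 are runs of the same replicate. CK1750 treated with UNC0638 at 1 µM had 2 samples with the same replicate number, and Tnm2 had 2 samples with DMSO and 2 with the same dose of UNC0638. UNC0638 blocks G9a and Glp, enzymes that methylate lysine 9 of histone H3. No genotype is given in the labels, and each line is 1 cell line, so a line stands for itself only. The series holds 30 samples in 12 groups, and the H3K9me2 and input DNA samples were not analysed here.

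Each group has 1 merged list of peaks, so no value below has a spread between replicates, no difference could be tested, and the sequencing depth is unknown. The lists held 27367 peaks (CK1750 with DMSO), 24601 (CK1750 with UNC0638), 30641 (Tnm2 with DMSO) and 18794 (Tnm2 with UNC0638). The score of a peak is −10 log10 of its P value as the caller gave it, with a cutoff of 50, and it grows with depth. Scores were therefore set beside the other peaks of the same list, as a percentile from 0 (weakest) to 100, and not compared between lists. A missing peak means that no region passed the cutoff, not that acetylation was absent. As a check of the cell type, 4 of 6 epithelial markers (Cdh1, Krt8, Krt18 and Krt19, not Epcam or Cldn4) had a peak within 2.5 kb of a start site in every list, and 0 of 6 blood cell markers had one in any. Of 4 endothelial markers Pecam1 had one in both Tnm2 lists, and of 5 fibroblast markers Col1a1 had one in all lists but that of Tnm2 with UNC0638.

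Few chemokine ligand genes carried the mark at their start. A peak within 2.5 kb of an annotated start site was present at 8 of 37 members in CK1750 with DMSO (21.6%, against 50% of all protein-coding genes). With UNC0638 the number was 6 of 37 (16.2%, against 49.1%). In Tnm2 it was 12 of 37 with DMSO (32.4%, against 49.4%) and 10 of 37 with UNC0638 (27%, against 41.3%). The share of members was thus below that of all genes in every list, and higher in Tnm2 than in CK1750 under both treatments. With only peaks of a score of at least 100, the number with UNC0638 was 5 in both lines. In all 4 lists 6 members had a start-site peak, namely Cxcl1, Cxcl5, Cxcl16, Cx3cl1, Ccl8 and Ccl25 (16.2%, against 39.2% of all genes). The place of Cxcl5 and Cx3cl1 among them depends on the cutoff. The best score of Cxcl5 was 81.7 in CK1750 with DMSO, and that of Cx3cl1 was 52.7 in CK1750 and 71.5 in Tnm2 with UNC0638. In none of the lists did 24 members have one (64.9%, against 46.0%), and the remaining 7 members had one in 1 or 2 lists.

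**Figure D1:**
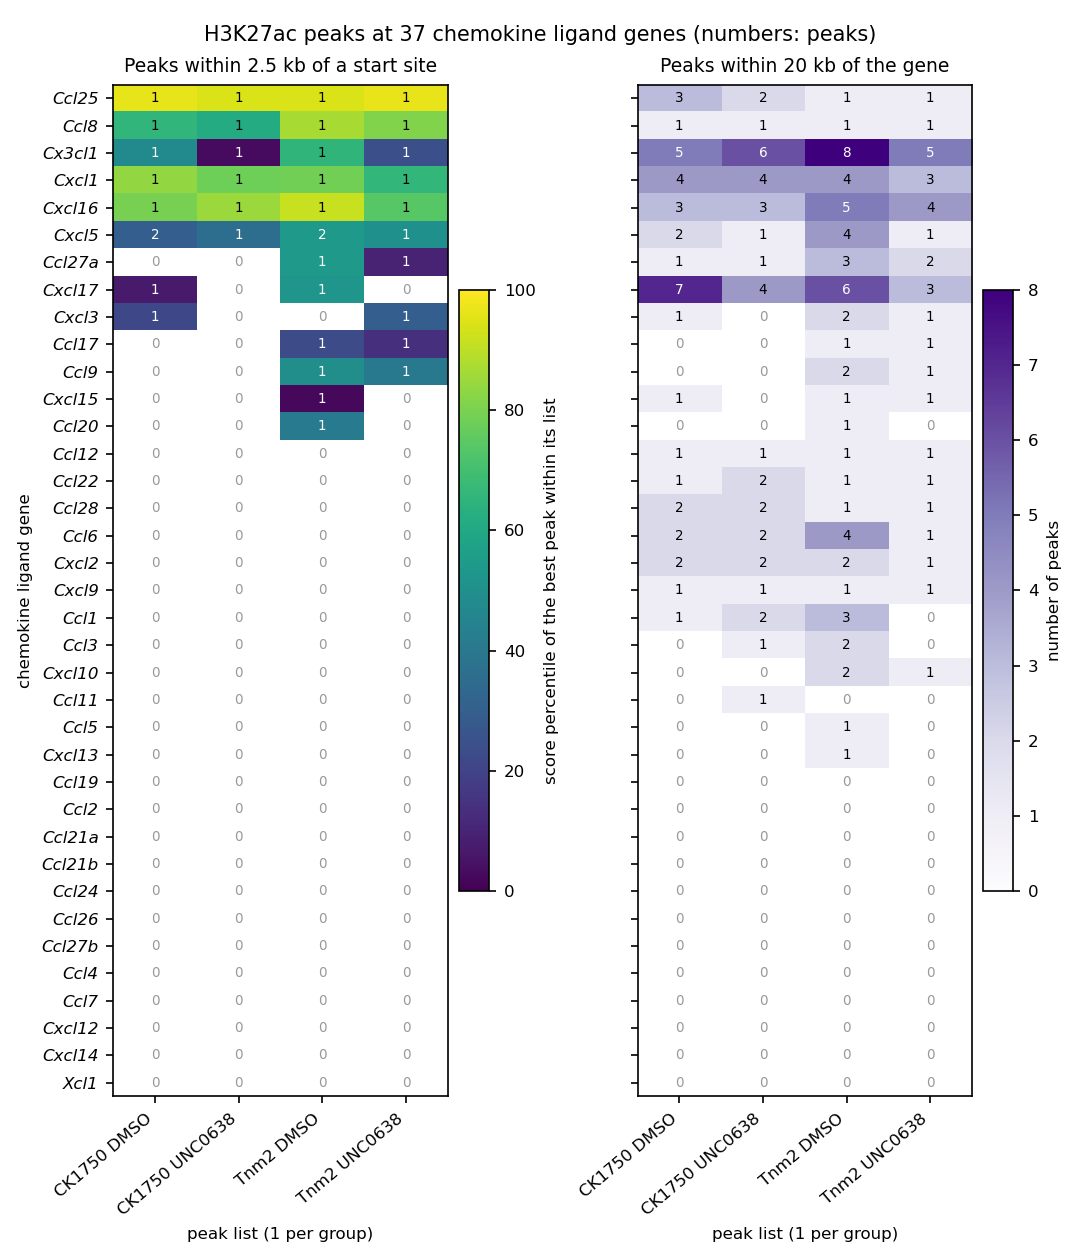
Number of H3K27ac peaks at each of the 37 chemokine ligand genes (rows) in the 4 peak lists (columns), within 2.5 kb of a start site (left, colour for the score percentile of the best peak within its list) and within 20 kb of the gene (right, colour for the number of peaks). The 6 genes at the top have a start-site peak in all 4 lists, and 12 genes at the bottom have no peak within 20 kb in any list.

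**Figure D2:**
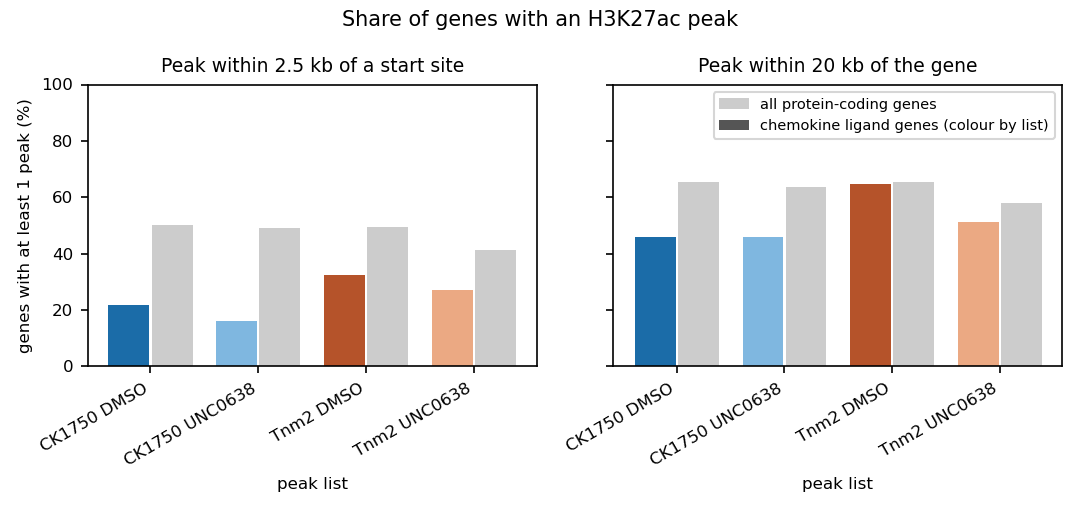
Share of genes (percent, axis from 0 to 100) with at least 1 peak within 2.5 kb of a start site (left) or within 20 kb of the gene (right) in each list. Coloured bars are the 37 chemokine ligand genes and grey bars all 21951 protein-coding genes, and the coloured bar is lower in every pair, by the least in Tnm2 with DMSO within 20 kb (64.9% against 65.5%).

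UNC0638 was compared with DMSO within each line, where a member was called lost when it had a start-site peak with DMSO and none with UNC0638, and gained in the reverse case. In CK1750, 2 of 8 members were lost, Cxcl3 and Cxcl17, against 4.85% of all genes with a DMSO peak, and 0 of 29 were gained, against 3.03%. In Tnm2, 3 of 12 were lost, Ccl20, Cxcl15 and Cxcl17, against 17.7%, and 1 of 25 was gained, Cxcl3, against 1.18%. Cxcl17 was thus lost in both lines, whereas Cxcl3 went in opposite directions. The lost peaks of members had DMSO scores between 51.3 and 149, at percentiles from 2.21 to 52.0 of their list. Most losses among all genes also had a best DMSO score under 200, 516 of 532 in CK1750 and 1666 of 1919 in Tnm2. Among genes whose best DMSO score was under 200, 2 of 4 members were lost in CK1750 (all genes, 20.2%) and 3 of 7 in Tnm2 (all genes, 53.7%).

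These counts rest in part on peaks near the cutoff. With only peaks of a score of at least 100 the members with a start-site peak numbered 5 and 5 in CK1750 and 10 and 5 in Tnm2 (DMSO and UNC0638). With the same number of highest-scoring peaks from every list (18794) they numbered 5 and 5, and 10 and 10. The net change with UNC0638, gains minus losses, was then 0 in both lines, but the members were not the same. In CK1750, Cx3cl1 counted as lost and Cxcl5 as gained at both settings. In Tnm2 with equal numbers, Ccl20 and Cxcl17 were still lost, and Ccl17 and Cxcl3 counted as gained. Both Tnm2 lists had passed through the same cutoff with very different numbers of peaks, and the part of depth in the losses was not tested.

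The lines were also compared with DMSO alone. Of the 8 members with a start-site peak in CK1750 only Cxcl3 had none in Tnm2 (1 of 8, against 7.47% of all genes). Of the 29 members without one in CK1750, 5 had one in Tnm2 (Ccl9, Ccl17, Ccl20, Ccl27a and Cxcl15), against 6.27% of all genes. Of these 5, Ccl9, Ccl17 and Ccl27a kept a start-site peak in Tnm2 with UNC0638.

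The ligands of Cxcr2, which attract neutrophils, had marked genes in every list. Cxcl1, Cxcl2, Cxcl3, Cxcl5 and Cxcl15 lie together on chromosome 5, and 3, 2, 3 and 3 of the 5 had a start-site peak in the lists of CK1750 with DMSO, CK1750 with UNC0638, Tnm2 with DMSO and Tnm2 with UNC0638. This order of the lists is used for all series of 4 values below. Among all genes the shares with a start-site peak were 50, 49.1, 49.4 and 41.3%. The share of these 5 ligands was higher in every list but that of CK1750 with UNC0638, where it was lower. Each of the lists with 3 of them included weak peaks. In CK1750 with DMSO these were Cxcl3 (percentile 21.8) and Cxcl5 (best peak at percentile 29.7). In Tnm2 the weakest was Cxcl15 with DMSO (percentile 2.21) and Cxcl3 with UNC0638 (percentile 29.9). Promoters were taken from RefSeq (GRCm38.p6, the build of the peak lists), from 250 bases before to 50 bases after the start, for 27 of the 37 members (33 promoters, since some genes have several). No entry was found for Ccl2, Ccl4, Ccl5, Ccl7, Ccl11, Ccl24, Ccl26, Cxcl5, Cxcl16 and Cxcl17. Cxcl1 is shown because it had a start-site peak in all lists, with its promoter covered in full, and Cxcl3 because its peak differed with treatment in both lines. Capitals mark matches to a kappaB-type motif (GGGNNTTTC or GGAATTTCC, which overlap) and to TATAAA, each searched on both strands.
Cxcl1 promoter, chr5:90890995-90891294, plus strand: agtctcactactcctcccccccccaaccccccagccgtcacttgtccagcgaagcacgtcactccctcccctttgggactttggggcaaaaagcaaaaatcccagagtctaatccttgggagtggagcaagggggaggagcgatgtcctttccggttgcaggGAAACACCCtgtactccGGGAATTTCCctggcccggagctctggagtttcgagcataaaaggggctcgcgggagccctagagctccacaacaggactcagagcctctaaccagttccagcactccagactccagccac
Cxcl3 promoter, chr5:90785851-90786150, plus strand: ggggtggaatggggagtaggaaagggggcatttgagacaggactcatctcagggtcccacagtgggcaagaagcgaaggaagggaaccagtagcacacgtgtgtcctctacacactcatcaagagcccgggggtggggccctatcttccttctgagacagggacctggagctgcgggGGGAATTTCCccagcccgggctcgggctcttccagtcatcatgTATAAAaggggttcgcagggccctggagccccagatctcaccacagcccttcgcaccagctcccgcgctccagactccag
The stretch in capitals shared by both promoters begins 71 bases before the start in Cxcl1 and 73 in Cxcl3. GGAATTTCC was found in 4 of the 33 promoters of members (1 each of Cxcl1, Cxcl2, Cxcl3 and Cxcl10) and in 0.317% of all 32851 promoters. The looser GGGNNTTTC was found in 8 of the 33 and in 4.36% of all. Cxcl2 held matches to both of these motifs and had no start-site peak in any list.

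Cxcl1, a main neutrophil attractant, had a start-site peak of score 779, 581, 421 and 181, at percentiles 83.9, 77.8, 78.7 and 66.2 of its list. It was 1301 to 1690 bases wide and covered the start in every list, and it ranked above the middle of each list. Upstream lay a second and stronger element, in a region of 2319 bases (chr5:90875001-90877319) between genes, with the nearest start that of Cxcl1. The strongest peak of this element came within 14462, 13922, 14547 and 14018 bases of that start and had a score of 1371, 1333, 1162 and 463, at percentiles 91.6, 91.5, 94.1 and 89.9. The middle 300 bases of the 1240 that all lists shared are shown, with an AP-1-type motif (TGANTCA), an interferon-type motif (GAAANNGAA) and TATAAA in capitals. In promoters, TGANTCA was found in 7 of the 33 of members and 7.81% of all, GAAANNGAA in 6 of 33 and 8.56%, and TATAAA in 10 of 33 and 13.6%.
element upstream of Cxcl1, chr5:90875925-90876224, plus strand: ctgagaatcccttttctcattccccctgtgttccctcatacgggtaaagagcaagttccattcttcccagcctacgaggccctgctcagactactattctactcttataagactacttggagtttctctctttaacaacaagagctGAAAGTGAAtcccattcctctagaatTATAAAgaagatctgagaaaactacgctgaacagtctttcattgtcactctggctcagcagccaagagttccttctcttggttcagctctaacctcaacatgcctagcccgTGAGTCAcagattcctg

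Cxcl5, also a neutrophil attractant and well known from lung epithelium, had 2, 1, 2 and 1 start-site peaks, of which the best had a score of 81.7, 113, 157 and 120 at percentiles 29.7, 36.1, 53.7 and 50.1. The best peak covered the start in all 4 lists, at a rank well below that of Cxcl1. Cxcl3 had 1 peak over its start in CK1750 with DMSO (score 68.8, percentile 21.8) and 1 in Tnm2 with UNC0638 (score 78.9, percentile 29.9), and none in the other lists. Cxcl15 (lungkine), a ligand known from lung epithelium, had a start-site peak in Tnm2 with DMSO alone, 2250 bases inside the gene and near the cutoff (score 51.3, percentile 2.21). Cxcl2 had none, and its 2, 2, 2 and 1 peaks within 20 kb included the Cxcl1 promoter peak in each list.

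**Figure D3:**
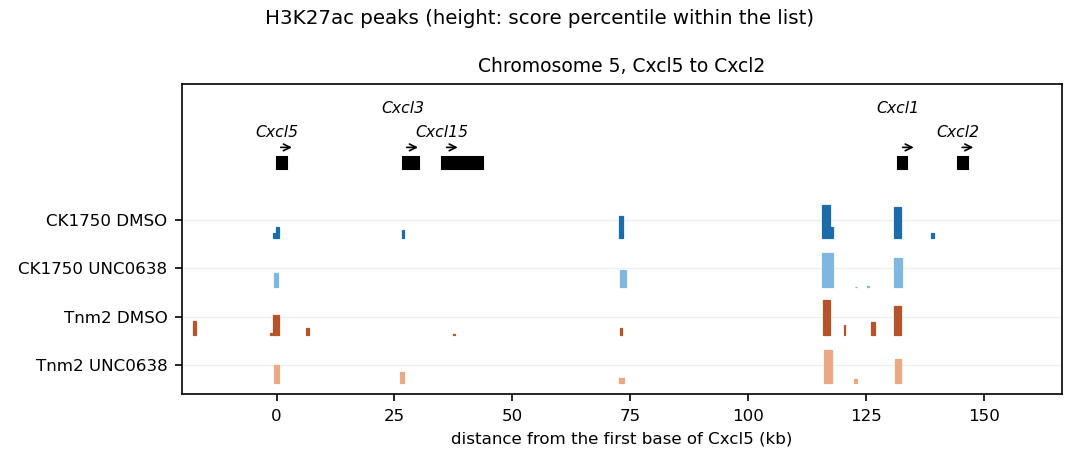
H3K27ac peaks from 20 kb before Cxcl5 to 20 kb after Cxcl2 on chromosome 5, with distance from the first base of Cxcl5 (kb) on the horizontal axis and a row for each list. Black boxes are genes with an arrow at the start, coloured boxes are peaks drawn to scale, and their height is the score percentile within the list. The element upstream of Cxcl1 and the Cxcl1 promoter are the tallest boxes of every row.

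Over the 186.579 kb of this cluster, the lists held 8, 6, 10 and 6 peaks, which covered 3.60, 3.85, 4.25 and 3.54% of it. The number of peaks thus differed more between the lists than the covered share. Ppbp, a platelet chemokine gene whose name falls outside the rule, lies in the same cluster and had a start-site peak in Tnm2 with DMSO only (score 65.6), and Pf4 had none.

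Cxcl9 and Cxcl10, interferon-induced ligands of Cxcr3 that attract T cells, had no start-site peak in any list. Cxcl9 had 1 peak within 20 kb in every list, which lay over a start of Sdad1, a neighbouring gene. Cxcl10 had 0, 0, 2 and 1 peaks within 20 kb, all in an intron of Art3, and the better of them had a score of 242 in Tnm2 with DMSO and 106 with UNC0638. These Tnm2 peaks also lay next to Cxcl11, the third of these ligands, which the annotation types as a polymorphic pseudogene and which is therefore not among the 37. Its gene model had 0, 0, 2 and 1 peaks within 2.5 kb of a start site.

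The membrane-anchored ligands Cx3cl1 and Cxcl16, which can hold leukocytes at the cell surface as well as attract them, both had a start-site peak in all 4 lists. Cx3cl1 (fractalkine) lies between Ccl22 and Ccl17, ligands of Ccr4 on chromosome 8. Its RefSeq promoter is also shown, and the peak began inside it, covering 243, 192, 158 and 133 of its 300 bases.
Cx3cl1 promoter, chr8:94771930-94772229, plus strand: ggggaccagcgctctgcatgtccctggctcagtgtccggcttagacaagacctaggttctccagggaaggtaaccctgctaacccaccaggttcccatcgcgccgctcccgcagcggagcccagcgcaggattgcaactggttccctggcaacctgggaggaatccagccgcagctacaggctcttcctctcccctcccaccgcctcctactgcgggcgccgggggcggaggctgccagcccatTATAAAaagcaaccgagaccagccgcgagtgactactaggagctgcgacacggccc
The Cx3cl1 start-site peak had a score of 141, 52.7, 233 and 71.5, at percentiles 47.6, 2.75, 65.4 and 24.4. It was thus of middle rank with DMSO and, in CK1750 with UNC0638, barely over the cutoff. Its gene and surroundings held the most peaks of any member in Tnm2 with DMSO, with 5, 6, 8 and 5 within 20 kb. The strongest were not at the promoter but downstream of the gene, in a region of 2116 bases (chr8:94784007-94786122) between genes, with a score of 819, 706, 774 and 270 at percentiles 84.7, 81.5, 89.4 and 78.0. A second downstream peak, 15057 to 15277 bases after the start, reached percentiles 70.0, 46.3, 83.0 and 44.4. The middle 300 bases of the 1249 shared by all lists in the first of these elements hold 0 of the motifs searched.
element downstream of Cx3cl1, chr8:94784742-94785041, plus strand: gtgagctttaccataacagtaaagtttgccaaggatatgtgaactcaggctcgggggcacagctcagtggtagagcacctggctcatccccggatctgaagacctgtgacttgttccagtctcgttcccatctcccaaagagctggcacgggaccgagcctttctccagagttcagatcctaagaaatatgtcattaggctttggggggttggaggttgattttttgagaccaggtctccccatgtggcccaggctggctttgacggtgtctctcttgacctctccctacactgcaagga

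Cxcl16 had a start-site peak of score 584, 866, 930 and 234, at percentiles 79.4, 85.1, 91.8 and 74.1. The same peak covered a start of Zmynd15, a gene read in the opposite direction from the same stretch, so the mark cannot be assigned to either gene. Of the 3, 3, 5 and 4 peaks within 20 kb of Cxcl16, the start-site peak included, 1 in each list lay over a start of Med11.

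Ccl22 and Ccl17, attractants of T helper type 2 and regulatory T cells, had weak peaks at most. Ccl17 had a start-site peak in Tnm2 only, 2079 bases upstream with DMSO (score 72.4, percentile 23.3) and 1943 bases upstream with UNC0638 (score 60.8, percentile 14.1), and neither peak reached the start. Ccl22 had no start-site peak and 1, 2, 1 and 1 peaks within 20 kb, all upstream of the gene by 9403 to 11152 bases. In the whole cluster, 106.447 kb, there were 6, 8, 10 and 7 peaks covering 6.11, 6.30, 8.30 and 7.96% of it.

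**Figure D4:**
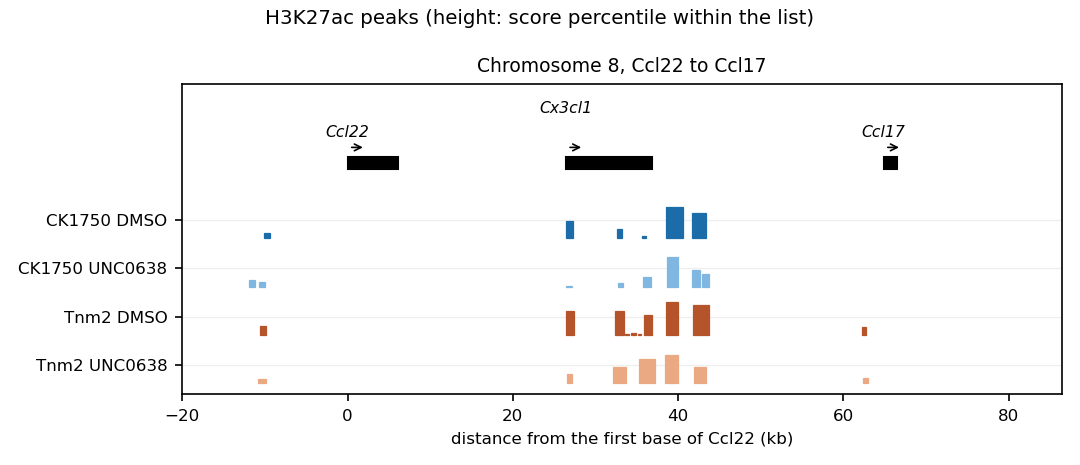
H3K27ac peaks from 20 kb before Ccl22 to 20 kb after Ccl17 on chromosome 8, drawn to scale against the distance from the first base of Ccl22 (kb), 1 row a list, with box height for the score percentile within the list. Downstream of Cx3cl1 every list has an element ranked above the Cx3cl1 promoter peak (percentiles 84.7, 81.5, 89.4 and 78.0), and peaks before Ccl17 appear in Tnm2 only.

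The chromosome 11 cluster that holds Ccl2, a monocyte-attracting ligand of Ccr2, gave a single marked gene. Ccl7, Ccl11, Ccl12, Ccl8 and Ccl1 lie in it too, and only Ccl8 had a start-site peak, in all 4 lists. Its promoter was covered in full in each of them and is shown with a TATAAA match in capitals, 32 bases before the start.
Ccl8 promoter, chr11:82114935-82115234, plus strand: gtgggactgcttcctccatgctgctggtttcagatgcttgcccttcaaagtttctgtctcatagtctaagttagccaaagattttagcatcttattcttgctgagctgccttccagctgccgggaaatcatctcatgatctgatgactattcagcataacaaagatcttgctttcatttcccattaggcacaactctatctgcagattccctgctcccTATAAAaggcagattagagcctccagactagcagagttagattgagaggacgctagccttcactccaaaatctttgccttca
A single peak, 2198, 2447, 2119 and 1974 bases wide, reached across the whole Ccl8 gene in every list. It had a score of 291, 278, 654 and 306, at percentiles 65.7, 61.6, 86.7 and 81.1, above the middle of each list. The 1 peak within 20 kb of Ccl12 in each list was this same peak. Ccl2 (MCP-1), the best known monocyte attractant, and Ccl7 had no peak within 20 kb in any list, and the nearest peak to the start of Ccl2 was 79.0, 37.1, 79.3 and 79.3 kb away.

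Ccl11 (eotaxin), which attracts eosinophils, had 1 peak within 20 kb in CK1750 with UNC0638 (score 76.8, percentile 21.2) and none elsewhere. Ccl24 and Ccl26, the other ligands of Ccr3, had none within 20 kb in any list. Ccl1, a ligand of Ccr8, had 1, 2, 3 and 0 peaks within 20 kb of its gene model, which is extended by a distant annotated start. The best of them reached percentiles 31.4, 9.30 and 60.1 in the 3 lists that had one.

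Of the inflammatory CC ligands on the same chromosome (Ccl3, Ccl4, Ccl5, Ccl6 and Ccl9) only Ccl9 had a start-site peak, in both Tnm2 lists. It covered the start in both, with a score of 138 with DMSO (percentile 49.3) and 96.9 with UNC0638 (percentile 40.5). Ccl6 had 2, 2, 4 and 1 peaks within 20 kb, Ccl3 had 0, 1, 2 and 0, Ccl5 (RANTES) had 0, 0, 1 and 0, and Ccl4 had none. The intergenic peak nearest to Ccl6 lay 5905, 5715 and 5769 bases upstream in the first 3 lists and was missing from Tnm2 with UNC0638, where the Ccl9 promoter peak was the only one of the cluster.

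**Figure D5:**
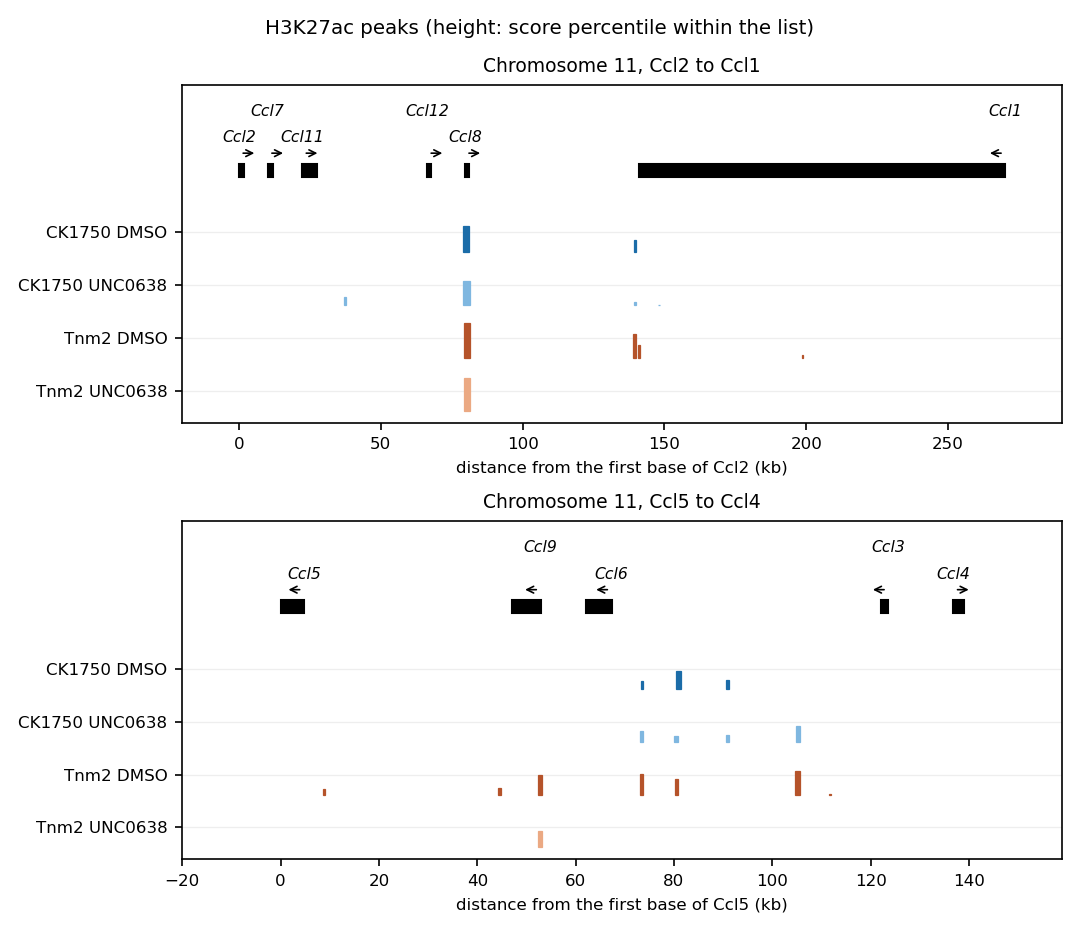
H3K27ac peaks in the 2 chromosome 11 clusters, from 20 kb before the first to 20 kb after the last gene, drawn to scale against the distance (kb) from the first base of Ccl2 (top) or Ccl5 (bottom), with box height for the score percentile within the list. The Ccl8 peak is present in every row, and Tnm2 with UNC0638 has 1 peak in each cluster.

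The cluster from Ccl2 to Ccl1 (310.12 kb) held 2, 4, 4 and 1 peaks, covering 0.945, 1.37, 1.33 and 0.637% of it, and the cluster from Ccl5 to Ccl4 (178.906 kb) held 3, 4, 7 and 1, covering 1.18, 1.66, 2.47 and 0.381%. In both, peaks were more numerous with UNC0638 in CK1750 and fewer in Tnm2. The same held for the cluster of Cx3cl1, and not for that of Cxcl1, where they were fewer in both lines.

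Ccl20, the chemokine ligand of Ccr6 and a product of stimulated epithelium, had a peak over its start in Tnm2 with DMSO (score 109, percentile 40.7) and in no other list. It was its only peak within 20 kb in any list, and in the other lists the nearest peak to a Ccl20 start was 125.832, 276.142 and 125.526 kb away. The promoter was covered in full by the Tnm2 peak and holds a match to GGGNNTTTC on the opposite strand, in capitals.
Ccl20 promoter, chr1:83116516-83116815, plus strand: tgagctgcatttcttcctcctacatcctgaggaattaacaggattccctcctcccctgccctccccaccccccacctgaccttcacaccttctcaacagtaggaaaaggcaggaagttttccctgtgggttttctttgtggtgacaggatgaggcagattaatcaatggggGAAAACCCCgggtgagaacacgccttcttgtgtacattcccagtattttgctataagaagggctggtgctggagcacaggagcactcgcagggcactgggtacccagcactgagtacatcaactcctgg

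Among the ligands of epithelial surfaces, Ccl25, Ccl27a and Cxcl17 had a start-site peak in at least 1 list and Ccl27b, Ccl28 and Cxcl14 in none. Ccl25 (TECK), known from thymus and small intestine, had the strongest peak of all members, with a score of 2431, 1697, 1208 and 852 at percentiles 96.4, 94.2, 94.5 and 96.7. The same peak covered a start of Elavl1, the gene of a widely expressed RNA-binding protein, which is read in the opposite direction. The promoter at this start is shown.
Ccl25 promoter, chr8:4324960-4325259, plus strand: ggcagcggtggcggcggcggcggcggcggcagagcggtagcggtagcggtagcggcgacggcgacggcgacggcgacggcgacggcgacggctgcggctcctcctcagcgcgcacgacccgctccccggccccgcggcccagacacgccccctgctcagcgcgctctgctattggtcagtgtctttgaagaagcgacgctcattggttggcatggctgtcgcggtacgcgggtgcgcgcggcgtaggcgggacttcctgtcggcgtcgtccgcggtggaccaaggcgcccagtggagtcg
A second RefSeq start of Ccl25, at position 4349588 of chromosome 8, had 0 of its 300 promoter bases covered in any list. The peak therefore belonged to the start next to Elavl1 and not to the inner one, and it cannot be assigned to Ccl25 rather than to Elavl1. Without Ccl25 and Cxcl16, whose start-site peaks they share with other genes, 6, 4, 10 and 8 of the remaining members had a start-site peak.

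Ccl27a (CTACK), a skin-homing attractant, had a peak over a start in Tnm2 only, with a score of 160 with DMSO (percentile 54.2) and 57.7 with UNC0638 (percentile 9.91). Cxcl17, made by mucosal and airway epithelium, had a start-site peak with DMSO in both lines, 781 bases inside the gene in CK1750 (score 54.8, percentile 7.07) and 755 bases inside in Tnm2 (score 149, percentile 52.0), and none with UNC0638. A strong element upstream of Cxcl17 was nevertheless listed in all 4 groups. The part of it nearest the gene lay 17210, 16498, 17336 and 17345 bases from the start, and its strongest peak had a score of 707, 1288, 666 and 325 at percentiles 82.5, 91.1, 87.0 and 82.4. Ccl28 (MEC), a mucosal ligand, had 2, 2, 1 and 1 peaks within 20 kb, of which that downstream of the gene was in every list at percentiles 68.3, 42.7, 36.1 and 22.0.

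The ligands that organise lymphoid tissue were without start-site peaks in all lists. Cxcl13, a B cell attractant, had 1 peak within 20 kb in Tnm2 with DMSO (score 92.4, percentile 34.1), and Cxcl12, Ccl19, Ccl21a and Ccl21b had none. Ccl21c is not among the protein-coding genes of the annotation used. Xcl1, a lymphocyte product, also had none. The start windows of Ccl19, Ccl21b and Ccl27b have 7, 3 and 2 near-identical copies elsewhere in the genome (at least 95% identity over at least 80% of 5001 bases), and how reads with several placements were treated is not given in the sources used here.

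In the wider window of 20 kb around the gene, 17, 17, 24 and 19 of 37 members had a peak (45.9, 45.9, 64.9 and 51.4%), against 65.3, 63.8, 65.5 and 58.0% of all genes. In CK1750, 2 of 17 members lost every such peak with UNC0638, Cxcl3 and Cxcl15, against 4.14% of all genes, and 2 of 20 gained one, Ccl3 and Ccl11, against 3.56%. In Tnm2, 5 of 24 lost theirs, Ccl1, Ccl3, Ccl5, Ccl20 and Cxcl13, against 12.3%, and 0 of 13 gained one, against 1.66%. In both lines members lost theirs at a higher share than all genes. In CK1750 they also gained one at a higher share, and the count was 17 with either treatment. The lost peaks had DMSO scores between 50.6 and 193. Neighbouring genes share peaks and are not separate observations: Cxcl3 and Cxcl15 in CK1750 lost the same peak. Across all lists 14 members had a peak within 20 kb in every list and 12 had none in any.

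Regions merged over the 4 lists give a count in which each peak enters once. Of 61 merged regions near members, 18 were in all 4 lists (29.5%, against 34.2% of all 37710 regions) and 17 in Tnm2 with DMSO alone (27.9%, against 17.4%). The nearest start was that of a member for 42 of the 61. The median percentile of the distinct peaks within 20 kb of a member was 36.6, 36.1, 47.0 and 44.4, so that peaks near chemokine ligand genes ranked somewhat below the middle of their list in each case.

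Other genes of the pathway were set beside the ligands by their peaks within 2.5 kb of a start site. The receptors named above, Cxcr2, Cxcr3, Ccr2, Ccr3, Ccr4, Ccr6 and Ccr8, had no start-site peak in any list. Of 4 atypical receptors, which bind chemokines without classical signalling, only Ackr3 had a start-site peak, in all 4 lists. Of 15 genes of the NF-kB pathway 14, 14, 14 and 12 had a start-site peak. In Tnm2, 2 of 14 lost theirs with UNC0638, against 17.7% of all genes with a DMSO peak. They were Nfkbib and Tnfaip3, both inhibitors of the pathway, with best scores of 153 and 109 in Tnm2 with DMSO. Nfkbia, also an inhibitor, had a start-site peak in all 4 lists. Nfkbie, another inhibitor, had no start-site peak in any list. The share of NF-kB genes with a start-site peak was thus above that of all genes in every list.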

How the data were processed

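The authors immunoprecipitated H3K27ac chromatin from CK1750 and Tnm2 cells grown with DMSO or UNC0638, mapped the reads to mm10 with bowtie2 and called peaks with MACS 1.4.2, keeping those with a P value under 1e-05. The deposited lists give, for each peak, a chromosome, start, end and score (−10 log10 P), with 1 list per group. The labels assign all samples of a group to its list. Which libraries entered a list, whether input DNA was the control and how reads with several placements were treated are not given in the sources used here. Depth is unknown.

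Peak positions were checked against the GRCm38 chromosomes (0 peaks beyond the end of 21 chromosomes). Genes and start sites came from GENCODE release M 21. Overlap of at least 1 base with a window of 2.5 kb around any start site, or of 20 kb around the gene, counted as a peak of that gene. A cluster was a run of members with gaps of at most 500 kb. Results for some other genes are not reported here. No test was run, since each group has 1 list. The members and lists were chosen with earlier results of these data known. Every member with a start-site peak in any list was named with its values, those with a peak within 20 kb only by their counts, and the others as having none. Promoters were printed for 6 members, first those with peaks in all lists and then those that differed between treatments. Alternatives were scores of at least 100, equal numbers of peaks, other windows, the middle of the peak, and the gene start only. A further alternative left out Ccl19, Ccl21a, Ccl21b, Ccl27a and Ccl27b as members with near-identical copies. The search for copies found 0 for Ccl21a and Ccl27a. Chosen after seeing the data were the addition of Cxcl11, the removal of members that share a peak with another gene, and genes with a best DMSO score under 200 only. Copies were sought with minimap2 2.31. Window counting was tested on simulated peaks. Python 3.11.15, numpy 2.4.6, pandas 2.3.3, pysam 0.24.0 and matplotlib 3.10.9 were used.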

Additional observations from a re-analysis of the deposited data

Results flagged for a closer look

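In the following cases UNC0638 went with a change of opposite sign in the 2 lines. With 1 list per group, none of these differences was tested. The number of Cxcl3 start-site peaks was 1 lower in CK1750 and 1 higher in Tnm2 with UNC0638 (-1 and 1). The number of peaks within 20 kb of Ccl1 differed by 1 and -3, that of Ccl3 by 1 and -2, and that of Cx3cl1 by 1 and -3 (CK1750 and Tnm2, UNC0638 minus DMSO). In the clusters the number of peaks differed by 2 and -3 from Ccl2 to Ccl1, by 1 and -6 from Ccl5 to Ccl4, and by 2 and -3 from Ccl22 to Ccl17. Ccl1 and Ccl3 are parts of the first and second of these clusters and Cx3cl1 of the third, so these are not separate observations. The whole lists differed from 27367 to 24601 peaks in CK1750 and from 30641 to 18794 in Tnm2.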

How the results depend on the processing

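No paired analysis was possible because each list pools its group, so the replicate numbers carry no values, and no replicate could be left out for the same reason. Of 84 alternative values for 12 counts, 72 stayed within 1.5 times the reported count and 12 moved beyond it. Among them 0 changed sign, which only the net changes with UNC0638 could do. The alternatives chosen after seeing the data are part of the 84. With a score of at least 100, the start-site count was 5 in CK1750 with DMSO and 5 in Tnm2 with UNC0638, the 20 kb count in Tnm2 with UNC0638 was 12, and the net change with UNC0638 was 0 in CK1750 and -5 in Tnm2, against -2 in each as reported. With equal numbers of peaks, the start-site count in CK1750 with DMSO was 5 and the net change 0 in both lines, where gains and losses offset each other. For start-site windows of 1 and 5 kb the net change in Tnm2 was -1 and -4. For gene windows of 10 and 50 kb the count in CK1750 with UNC0638 was 10 and 27, and that in Tnm2 with UNC0638 was 14 and 20. At 50 kb the count with UNC0638 was thus higher in CK1750 than in Tnm2. The stricter scores and equal numbers use fewer peaks by construction, and smaller windows fewer bases. All 5 lost start-site peaks scored under 200 with DMSO, so both counts of losses were the same among such genes only. With Cxcl11 added, the start-site count was 13 and 11 in Tnm2 with DMSO and UNC0638 and unchanged in CK1750. Depth is unknown and could move any count near the cutoff.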
